A study of Mus musculus with 5 samples.

Results

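The genes described here are the core genes of the Hedgehog pathway, namely the ligand genes Shh, Ihh and Dhh, the receptor genes Ptch1 and Smo together with Hhip, and the transcription factor genes Gli1, Gli2 and Gli3. These are 9 of the 21938 protein-coding genes of the GENCODE M21 annotation. They were followed in a ChIP-seq experiment against H3K27me3, trimethylation of lysine 27 on histone H3, a mark placed by Polycomb repressive complex 2 with Ezh2 as its methyltransferase. Molars were taken from wildtype C57BL/6 mice at postnatal day 3 and stripped of their epithelium, and the remaining mesenchyme was used. There were 2 H3K27me3 libraries (replicates 1 and 2), 2 input libraries (chromatin taken before pulldown) and 1 library made with nonspecific IgG, all from the same strain, genotype and age. Whether the replicates are separate animals or pools is not stated in the labels, so each SD below is over 2 libraries and may be technical. For each gene, peaks were taken from the gene itself and 5 kb beyond either end (the window), on the GRCm38 build, in each of the 3 peak lists, which are replicate 1 called against input, replicate 1 called against IgG and replicate 2 called against input. The first and second lists share the same H3K27me3 library, so they show the effect of the control and are not replicates.

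Hedgehog ligands are secreted proteins that bind the receptor Ptch1. Without ligand, Ptch1 holds the membrane protein Smo inactive, and binding of ligand releases Smo, which acts in the primary cilium on the Gli transcription factors. In the developing tooth, Shh is known as a signal made by the dental epithelium, to which the neighbouring mesenchyme responds. Ptch1, Hhip and Gli1 are themselves switched on by the pathway, and Ptch1 and Hhip restrain it. H3K27me3 is found at genes kept silent, often developmental regulators with promoters rich in CpG dinucleotides.

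After removal of duplicates, 30369351 H3K27me3 tags remained in replicate 1 and 49947919 in replicate 2, with control libraries of 23688420 to 51681224 tags. Tags were 49 bp long in replicate 1 and 74 bp in replicate 2. MACS, the peak caller, worked with a fragment length below the tag length. Replicate 1 had a value of 46 bp with either control, while 71 bp applied to replicate 2. The shortest peaks of each list were exactly as long as this value. Depth, tag length, fragment length and replicate therefore cannot be told apart. The lists held 22757 peaks for replicate 1 against input, 24881 against IgG and 33379 for replicate 2. The lowest pileup in a list, the mean number of overlapping tags in a peak, stood for 4 tags in replicate 1 and 6 tags in replicate 2. A list of peaks gives no RNA level, so the labelled tissue could be looked at only through the mark. Of 11 marker genes of dental mesenchyme 6 had a peak in both replicates against input, compared with 15.7% of protein-coding genes. Of 8 markers of dental epithelium 2 did, and of 4 markers of blood and endothelium 2 did. Among the mesenchymal markers was Pax9, with a mean covered share (the part of the window under peaks) of 1.98% ± 0.467 (SD, n = 2). The defining markers Krt14, Krt5 and Amelx (epithelium) and Cdh5 (endothelium) were free of peaks in all lists, as were Col1a1 and Dlx2 of the mesenchyme. The part of other cells in the values below was not tested, and fewer marked cells cannot be told apart from less mark per cell.

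All 3 ligand genes carried peaks in every list, while the receptor genes Ptch1 and Smo carried none in any list. Among all protein-coding genes, 25.0% had at least 1 peak in the window in replicate 1 against input, 25.9% in replicate 1 against IgG and 35.7% in replicate 2. For the 9 Hedgehog genes these numbers were 4, 3 and 7, respectively. In both replicates against input, 4 of 9 had a peak (Shh, Ihh, Dhh and Gli1), compared with 15.7% of protein-coding genes. In all 3 lists, the ligand genes remained, 3 of 9, compared with 12.7%. These are descriptions of 9 genes without a test.

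The ligand windows added up to 54.2 kb, the windows of Ptch1, Smo and Hhip to 213 kb and the Gli windows to 528 kb. The ligand genes thus had the least sequence and the most peaks. Of the Hedgehog peaks they held 7 of 10 in replicate 1 against input, 10 of 10 with IgG as the control and 6 of 11 in replicate 2. The peak density at the ligand genes was 1.29, 1.85 and 1.11 peaks per 10 kb in these lists. At Ptch1, Smo and Hhip it was 0, 0 and 0.0938, and at the Gli genes it was 0.0568, 0 and 0.0568. The merged windows of all protein-coding genes had 0.103, 0.114 and 0.139 peaks per 10 kb. The Hedgehog genes together were close to this level, with 0.126, 0.126 and 0.138 peaks per 10 kb, because the long Gli windows held few peaks.

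**Figure D1:**
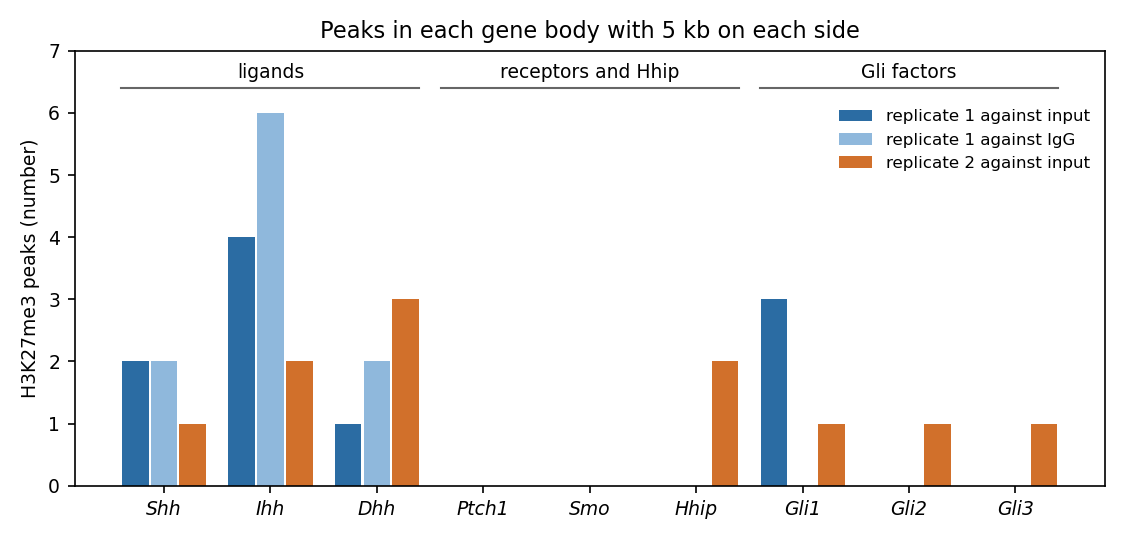
Number of H3K27me3 peaks (y axis) in each Hedgehog gene and 5 kb beyond either end (x axis), with 1 bar per peak list. Shh, Ihh and Dhh have bars in all 3 lists, Ptch1 and Smo have none, and Hhip, Gli2 and Gli3 have bars in replicate 2 alone.

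Ihh (ENSMUSG00000006538.12, chromosome 1, 74945315 to 74951672, minus strand), the ligand best known from cartilage and bone growth, had the most peaks of the 9 genes in both replicate 1 lists, while in replicate 2 Dhh had more. Replicate 1 had 4 peaks there against input and 6 against IgG, and replicate 2 had 2. Peaks spanned 2.76%, 5.25% and 2.39% of the window in this order, above 98.4%, 99.0% and 97.9% of protein-coding genes. The mean over both replicates against input was 2.58% ± 0.264 (SD, n = 2), the highest mean of the 9. Peaks of replicate 2 lay around the 5′ end. The nearer was upstream, at -262 to -36 bp relative to the 5′ end, and the other lay in an intron, from 851 to 1014 bp after it. Replicate 1 against IgG had a peak in noncoding exon sequence from 154 to 311 bp after the 5′ end and an intronic peak from 936 to 1217 bp. This intronic peak shared 79 bases with the intronic peak of replicate 2, and it was the only overlap between replicates at the 9 genes, in any pair of lists. In replicate 1 against input the peak nearest to the 5′ end was 1960 bp away, in an intron. The same library therefore had 2 peaks within 1 kb of the Ihh 5′ end against IgG and none against input. Against both controls it had a peak in the upstream flank, about 3 kb before the 5′ end in an exon of the unclassified transcript Gm37744, and a peak in the downstream flank.

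The promoter of Ihh is shown because the replicate 2 peak covered most of it, and the intronic peak because it was the region shared by the libraries. Capitals mark CpG dinucleotides, and sequences are written 5′ to 3′ on the strand of the gene. The Ihh promoter is the RefSeq window of 250 bases before to 50 after the start (GRCm38.p6, chr1:74951623-74951922, minus strand), of which letters 1 to 215 lay in the replicate 2 peak. The intronic replicate 2 peak is at chr1:74950658-74950821, minus strand, and its letters 86 to 164 are the 79 bases shared with replicate 1 against IgG.
Ihh promoter: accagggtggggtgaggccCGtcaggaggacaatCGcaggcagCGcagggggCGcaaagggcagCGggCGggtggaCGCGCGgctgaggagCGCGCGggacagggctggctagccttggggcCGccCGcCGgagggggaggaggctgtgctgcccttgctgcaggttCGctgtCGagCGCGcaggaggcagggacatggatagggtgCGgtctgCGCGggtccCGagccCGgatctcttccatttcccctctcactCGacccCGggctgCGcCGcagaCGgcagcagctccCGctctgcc
Ihh intronic peak, replicate 2: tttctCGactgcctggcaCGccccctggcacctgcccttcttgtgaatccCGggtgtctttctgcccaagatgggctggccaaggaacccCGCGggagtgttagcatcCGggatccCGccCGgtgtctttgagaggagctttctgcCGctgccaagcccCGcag
The promoter held 30 CpG in 300 bases at a GC content of 72.7%, and the intronic peak 10 CpG in 164 bases at 64.0%.

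Dhh (ENSMUSG00000023000.5, chromosome 15, 98891152 to 98898540, minus strand), the ligand known from testis and peripheral nerve, had 1 peak in replicate 1 against input, 2 when IgG was the control and 3 in replicate 2. Its covered share was 0.397%, 1.13% and 2.42%, respectively, and the mean over both replicates against input was 1.41% ± 1.43 (SD, n = 2). The SD at this gene was thus as large as its mean. In replicate 1 against both controls a peak lay in noncoding exon sequence near the 3′ end of Dhh, 5237 bp from the 5′ end, where the window also crosses an intron of Rhebl1, a small GTPase gene. Closer to the 5′ end, replicate 1 against IgG had a peak 154 bp upstream, while replicate 2 had peaks 567 bp upstream and 655 bp downstream, the latter reaching coding exon sequence. A further replicate 2 peak, 3400 bp downstream, lay in coding sequence that is also exonic in the antisense RNA Gm49442. Peaks near the Dhh start came close to each other between libraries but did not overlap, the gap being 311 bp.

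The Dhh promoter (RefSeq, chr15:98898491-98898790, minus strand) and the upstream peak of replicate 2 (chr15:98899107-98899311, minus strand) are shown for comparison with Ihh. Letters 1 to 97 of the promoter lay in the peak of replicate 1 against IgG.
Dhh promoter: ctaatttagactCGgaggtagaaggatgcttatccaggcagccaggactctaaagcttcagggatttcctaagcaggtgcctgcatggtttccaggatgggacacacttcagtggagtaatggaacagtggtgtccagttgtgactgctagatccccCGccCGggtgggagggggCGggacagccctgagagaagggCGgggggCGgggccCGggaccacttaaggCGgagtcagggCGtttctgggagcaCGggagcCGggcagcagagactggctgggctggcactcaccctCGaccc
Dhh upstream peak, replicate 2: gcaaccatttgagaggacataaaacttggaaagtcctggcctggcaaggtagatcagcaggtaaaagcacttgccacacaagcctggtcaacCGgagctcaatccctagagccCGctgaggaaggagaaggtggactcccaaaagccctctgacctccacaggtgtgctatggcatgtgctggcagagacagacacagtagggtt
The Dhh promoter held 12 CpG, of which most were outside the peak, and the upstream peak held 2 CpG in 205 bases. Marked sequence near the starts of these ligand genes thus ranged from CpG-rich to CpG-poor.

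Shh (ENSMUSG00000002633.4, chromosome 5, 28456815 to 28467256, minus strand), the ligand of the dental epithelium, had 2 peaks in replicate 1 with either control and 1 in replicate 2. Its covered share was 1.17%, 1.80% and 1.61%, and the mean over both replicates against input was 1.39% ± 0.308 (SD, n = 2), above 96.9% of protein-coding genes. An intronic peak 5392 bp from the 5′ end was called against both controls and lay wholly within the IgG-called peak. Replicate 1 against input also had a peak of 71 bp in coding sequence, 8883 bp from the 5′ end, with 11 CpG and a GC content of 76.1%. Against IgG the other peak was intronic, 4244 bp from the 5′ end. The replicate 2 peak lay on the other side of the gene start, 2786 bp upstream, and was 8178 bp from the nearest input-called peak of replicate 1. No library had a peak within 1 kb of the Shh 5′ end. The antisense RNA 9530036O11Rik spans these peaks and the lincRNA Gm26894 spans the upstream peak, so the peaks belong to the locus rather than to Shh alone. The intronic peak (chr5:28461696-28461864, minus strand) is shown because it was called against both controls.
Shh intronic peak, replicate 1: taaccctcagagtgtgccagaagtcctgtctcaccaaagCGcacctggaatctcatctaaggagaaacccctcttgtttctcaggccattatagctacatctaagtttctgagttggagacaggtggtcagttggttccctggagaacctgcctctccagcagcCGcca
It held 2 CpG in 169 bases at a GC content of 51.5%.

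**Figure D2:**
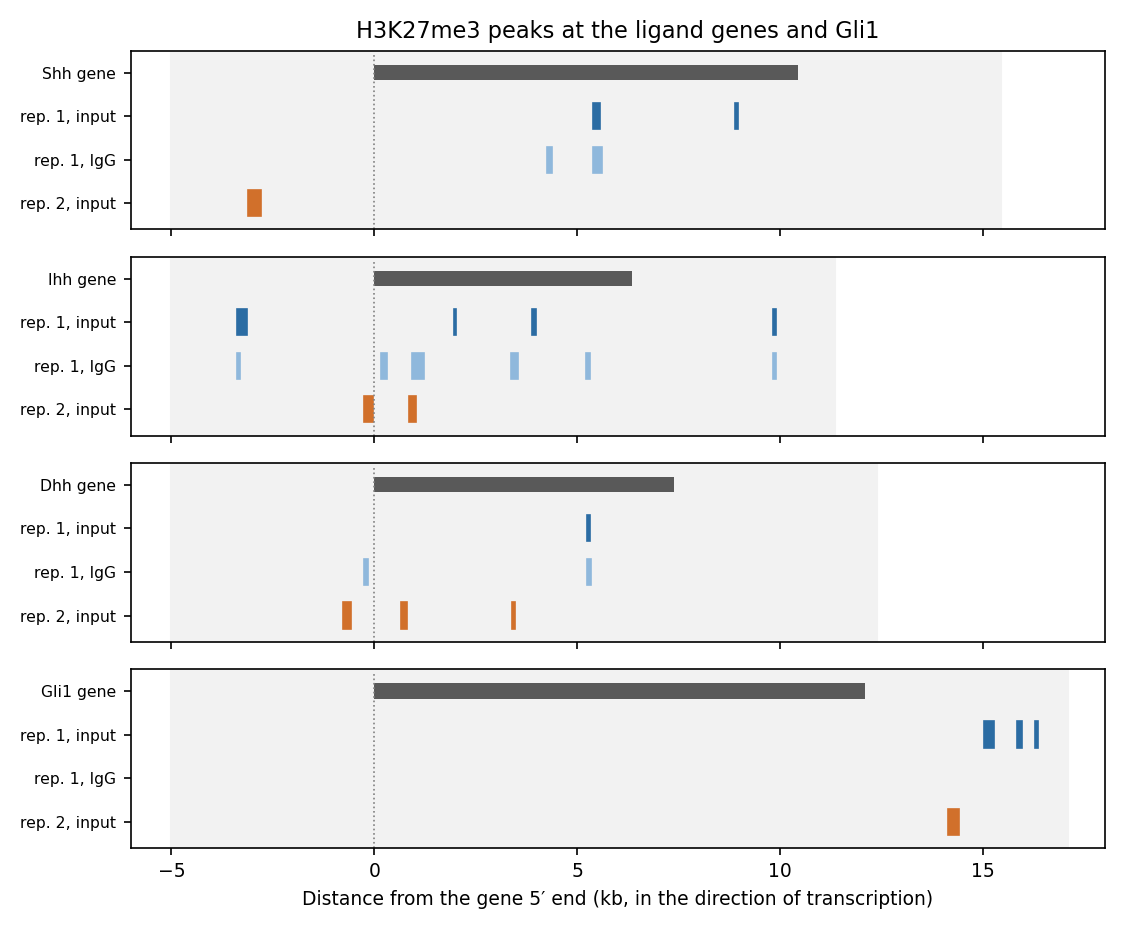
Position of each peak at Shh, Ihh, Dhh and Gli1, with the distance from the gene 5′ end in kb along the direction of transcription (x axis) and the gene body and the 3 lists as rows. Grey shading marks the window, coloured boxes are peaks to scale, and the Gli1 peaks all lie past the 3′ end of the gene.

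The receptor genes were largely free of peaks. Ptch1 (ENSMUSG00000021466.12, chromosome 13, 63508328 to 63573598, minus strand), the ligand receptor, had 0 peaks in a window of 75.3 kb in all 3 lists. The peaks nearest to its gene body were 66705 bp and 66691 bp away in replicate 1 against input and against IgG, and 49882 bp away in replicate 2. Smo (ENSMUSG00000001761.7, chromosome 6, 29735503 to 29761365, plus strand), the transducer held back by Ptch1, likewise had 0 peaks in 35.9 kb. Its nearest peaks were 62258 bp away in both replicate 1 lists, while a replicate 2 peak lay 7001 bp from the gene, just outside the flank. A list without a peak shows that none was called at this depth, not that the mark was absent.

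Hhip (ENSMUSG00000064325.4, chromosome 8, 79965851 to 80058006, minus strand), which encodes a membrane protein that binds and sequesters ligand, had 0 peaks in both replicate 1 lists and 2 in replicate 2. The longer of these was 807 bp, longer than 99.9% of peaks in its list, and lay in an intron from 1316 to 2122 bp after the 5′ end. The other was 115 bp long and lay 29608 bp into the gene. The replicate 2 peaks covered 0.903% of the window, and the mean over both replicates was 0.451% ± 0.638 (SD, n = 2). The nearest peak of replicate 1 to the gene body was 123981 bp away against input and 17024 bp away against IgG, so Hhip had peaks in replicate 2 alone. The Hhip promoter (RefSeq, chr8:80057959-80058258, minus strand) is shown because it held 30 CpG, as many as the Ihh promoter, and yet no peak in any list.
Hhip promoter: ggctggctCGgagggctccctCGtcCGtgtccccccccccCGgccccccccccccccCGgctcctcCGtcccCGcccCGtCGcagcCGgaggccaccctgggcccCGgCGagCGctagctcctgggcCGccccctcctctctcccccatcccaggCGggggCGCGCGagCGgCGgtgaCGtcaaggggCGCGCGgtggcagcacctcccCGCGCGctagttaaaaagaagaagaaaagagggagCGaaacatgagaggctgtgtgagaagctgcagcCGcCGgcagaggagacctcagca

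The Gli genes encode the transcription factors at the end of the pathway. Gli1 (ENSMUSG00000025407.7, chromosome 10, 127329882 to 127341974, minus strand), an activator and a readout of pathway activity, had 3 peaks in replicate 1 against input, 0 with IgG as the control and 1 in replicate 2. These peaks covered 1.99%, 0% and 1.29% of its window, and the mean over both replicates against input was 1.64% ± 0.499 (SD, n = 2). None of them lay in the Gli1 gene. All 4 were in the downstream flank and touched coding exons of Arhgap9, a gene on the opposite strand. The replicate 1 peaks began 15028 to 16279 bp and the replicate 2 peak 14129 bp from the Gli1 5′ end, and the nearest pair of replicates was 616 bp apart. Against IgG the nearest peak to the Gli1 body was 144727 bp away, so all 3 peaks of replicate 1 depended on the control. The longest replicate 1 peak (chr10:127326703-127326946) and the replicate 2 peak (chr10:127327562-127327845) are shown on the Gli1 strand, the minus strand, because the Gli1 call rests on this stretch of Arhgap9.
Gli1 flank peak, replicate 1: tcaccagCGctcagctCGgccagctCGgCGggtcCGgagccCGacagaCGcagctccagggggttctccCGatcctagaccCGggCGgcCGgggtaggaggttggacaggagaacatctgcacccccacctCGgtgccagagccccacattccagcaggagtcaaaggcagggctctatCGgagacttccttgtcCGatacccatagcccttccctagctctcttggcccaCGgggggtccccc
Gli1 flank peak, replicate 2: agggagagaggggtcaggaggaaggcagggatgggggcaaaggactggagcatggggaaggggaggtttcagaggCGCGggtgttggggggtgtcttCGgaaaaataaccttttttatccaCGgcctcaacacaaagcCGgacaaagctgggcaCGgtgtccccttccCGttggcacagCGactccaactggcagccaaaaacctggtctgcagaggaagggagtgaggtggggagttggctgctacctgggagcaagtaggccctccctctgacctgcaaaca
They held 15 CpG in 244 bases and 8 CpG in 284 bases.

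Gli2 (ENSMUSG00000048402.14, chromosome 1, 118834132 to 119053619, minus strand) is the main activator of the pathway and Gli3 (ENSMUSG00000021318.15, chromosome 13, 15463235 to 15730026, plus strand) acts largely as its repressor. Both are long genes, with windows of 229 kb and 277 kb. Each had 0 peaks in both replicate 1 lists and 1 intronic peak in replicate 2, 151949 bp and 143352 bp from the 5′ end. These peaks covered 0.0641% and 0.0347% of the windows. The mean covered shares were 0.0320% ± 0.0453 for Gli2 and 0.0173% ± 0.0245 for Gli3 (SD, n = 2 each). Per length this was 0.0436 and 0.0361 peaks per 10 kb, below the 0.139 of all protein-coding windows in replicate 2. Just outside the Gli2 flank, replicate 1 had a peak 5822 bp upstream against input and 5758 bp upstream against IgG, within the lincRNA gene Gm26831. For Gli3 the nearest peak of replicate 1 against input was 8516 bp from the gene.

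Ordered by the mean covered share over both replicates, the genes ran Ihh, Gli1, Dhh, Shh, Hhip, Gli2, Gli3 and then Smo and Ptch1, both at 0%. Ihh exceeded Gli1 by 0.938 percentage points, more than the larger SD of this pair (0.499). This lead was not stable, since in replicate 2 alone Dhh was higher than Ihh (2.42% against 2.39%), and with replicate 2 reduced to the number of replicate 1 peaks the mean of Ihh was 1.38%, below the 1.39% of Shh. Gli1, Dhh and Shh, between 1.64% and 1.39%, did not differ from each other beyond the spread between libraries. Shh exceeded Hhip by 0.940 percentage points, more than the larger SD of 0.638. No neighbours further down the order differed beyond their spread. The median over the 9 genes was 0.451%, while the median over all protein-coding genes was 0%. Over the 3 lists, the protein-coding genes with covered shares most like those of Ihh, by Euclidean distance, were Ppm1n (0.553 percentage points away), Zpbp2 (0.668) and the T-box gene Tbx18 (0.691).

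**Figure D3:**
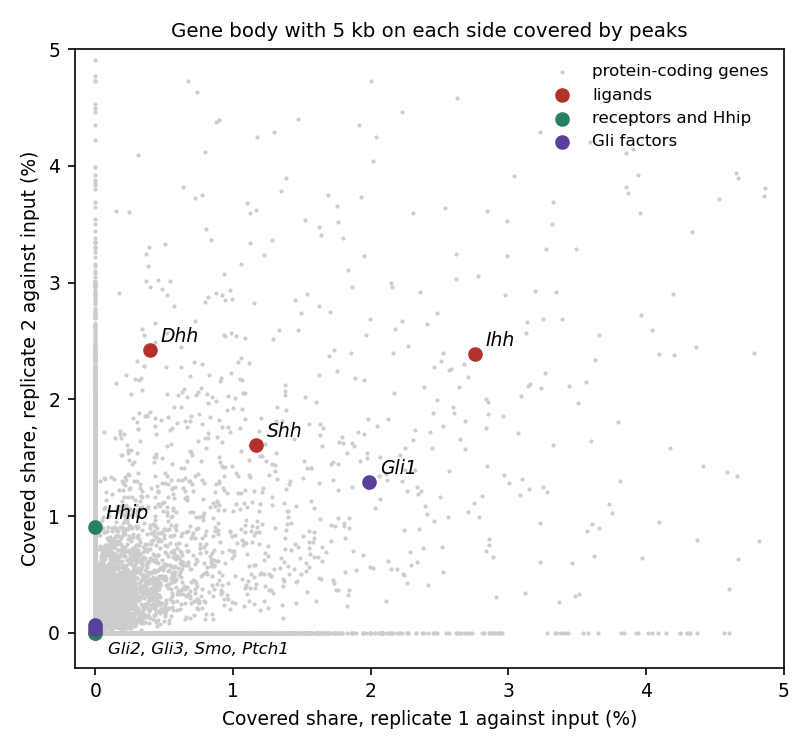
Share of the window covered by peaks in replicate 1 (x axis) and replicate 2 (y axis), both against input and in percent, for Hedgehog genes (coloured) and all protein-coding genes (grey). Ihh, Dhh, Shh and Gli1 are above 0 on both axes and Hhip on the replicate 2 axis alone, and 252 protein-coding genes lie beyond the axis limit of 5%.

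Peaks were weak throughout the lists, and those at Hedgehog genes lay near the list medians. Fold enrichment, the authors' ratio of pileup to control background with a pseudocount of 1, ranged from 2.47 to 2.84 in replicate 1 against input, with a median of 2.59 compared with 2.63 for the whole list. Against IgG it ranged from 2.57 to 3.21 (median 2.63, list 2.66) and in replicate 2 from 2.33 to 2.63 (median 2.43, list 2.45). The highest value, 3.21, belonged to the Ihh upstream peak against IgG. Pileups stood for a mean of 4 to 4.51 tags in replicate 1 against input, 4 to 5.14 against IgG and 6 to 6.95 in replicate 2. At the lowest pileup of their list were 5 of 10, 3 of 10 and 4 of 11 Hedgehog peaks, compared with 44.5%, 35.1% and 37.9% of all peaks. With so few tags, the position of a single peak is subject to counting error. The cutoff was an unadjusted p of 0.005. The file headers say that q-values were not calculated, yet a q column is filled, and by its values 0 peaks of replicate 1 against input, 0 against IgG and 4 of the 33379 peaks of replicate 2 had a q of 0.05 or lower, none of them at a Hedgehog gene. The peak calls are thus not controlled for false discoveries. The median length was 86.0 bp in replicate 1 against input (119 bp for the list), 120 bp against IgG (120 bp) and 164 bp in replicate 2 (181 bp).

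Single peaks seldom coincided. Of the 10 Hedgehog peaks of replicate 1 against input, 0 were overlapped by a replicate 2 peak, and 0 of the 11 replicate 2 peaks were overlapped in return. Over the whole lists, 2.85% and 1.90% were. By the limit of 3 counts, 0 of 10 allows a share of up to 30.0%. This limit takes the peaks as independent, but they lay at 4 genes and came from the same library. The median distance from a Hedgehog peak of replicate 1 against input to the nearest replicate 2 peak was 2370 bp, compared with 13435 bp over the whole list. Of the same 10 peaks 4 were overlapped by the IgG-called list, all at ligand genes, compared with 51.0% of the whole list.

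Next, promoters were examined. Within 1 kb of the 5′ end, 0 of 9 genes had a peak in replicate 1 against input, where 3.87% of protein-coding genes did. In replicate 1 against IgG and in replicate 2 the number was 2 of 9, Ihh and Dhh in both lists, where 4.52% and 4.16% of protein-coding genes had a peak. In both replicates against input, 0 of 9 had a promoter peak, compared with 1.04% of protein-coding genes, and the limit of 3 counts allows a share of up to 33.3%. These limits cover counting error only, and the 9 genes are the whole set rather than a sample of genes.

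CpG content did not set the ligand genes apart. Over 1 kb on each side of the 5′ end, the observed to expected CpG ratio was 0.391 at Shh, 0.757 at Ihh and 0.394 at Dhh. It was 0.638 at Ptch1, 0.667 at Smo and 0.470 at Hhip, and at Gli1, Gli2 and Gli3 it was 0.489, 0.674 and 0.885. The median over protein-coding genes was 0.474. Shh and Dhh, with peaks in every list, thus lay below the median, and Ptch1, Smo, Gli2 and Gli3, with few peaks or none, lay above it. Within the peaks, the median ratio was 0.300 in replicate 1 against input, 0.297 with IgG as the control and 0.251 in replicate 2, compared with 0.147, 0.157 and 0.151 over the whole lists and 0.190 over the sequenced genome. The letters TGGGTGGTC, the consensus bound by Gli proteins, were searched on both strands. They were found in 0 Hedgehog peaks of any list and, within 1 kb of a 5′ end, at Ptch1 alone of the 9 genes, where 1.70% of protein-coding genes held them. Of the 7 genes with a RefSeq promoter of 300 bases none held these letters there, compared with 0.253% of all such promoters. RefSeq promoters of Shh and Gli1 were not analysed here.

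The surroundings of the ligand genes differed from gene to gene. Within 100 kb of the Ihh 5′ end there were 30 peaks in replicate 1 against input, 33 with IgG as the control and 15 in replicate 2, more than at 99.6%, 99.6% and 99.4% of protein-coding genes. Around Dhh there were 6, 4 and 3 peaks and around Shh 2, 3 and 5, the latter more than at 58.6%, 71.9% and 85.9% of protein-coding genes. Ptch1 had 2, 2 and 1 peaks in this span, Smo 1, 2 and 4, Hhip 0, 0 and 3, Gli1 4, 0 and 4, Gli2 1, 1 and 0 and Gli3 0 in each list.

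Some genes near Ihh and Dhh, named after their values were seen, were covered more than the ligand genes themselves. Within 200 kb of the Ihh 5′ end, 5 of 10 protein-coding genes had a peak in both replicates against input. Over all protein-coding genes the share was 15.7%. Fev, a neuronal ETS factor gene 59896 bp from Ihh, had a mean covered share of 10.4% ± 0.956, and Cryba2, a crystallin gene, had 8.37% ± 2.53 (SD, n = 2 each). Near Dhh 5 of 18 genes had such peaks, among them the Wnt ligand genes Wnt1, with 6.57% ± 1.97, and Wnt10b, with 2.52% ± 2.22. Another of the 5 was Rhebl1, which overlaps Dhh and whose window held the same 1, 2 and 3 peaks as Dhh. Near Gli1 3 of 20 annotated entries did, which included Arhgap9 at 2.01% ± 0.614. The name Ddit3 stood for more than 1 of these entries. Arhgap9 overlaps Gli1, and its 3, 0 and 1 peaks were those of the Gli1 window. Rhebl1 and Arhgap9 were thus counted through the same peaks as Dhh and Gli1, and are not separate from them. Near Smo 1 of 5 genes did. The counts near Gli1 and Smo were thus close to the share over all protein-coding genes. The single neighbour of Shh, Rbm33, and that of Ptch1, Fancc, had 4 and 2 peaks in replicate 2 and 0 in replicate 1. Hhip, Gli2 and Gli3 had no protein-coding neighbour in this span.

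**Figure D4:**
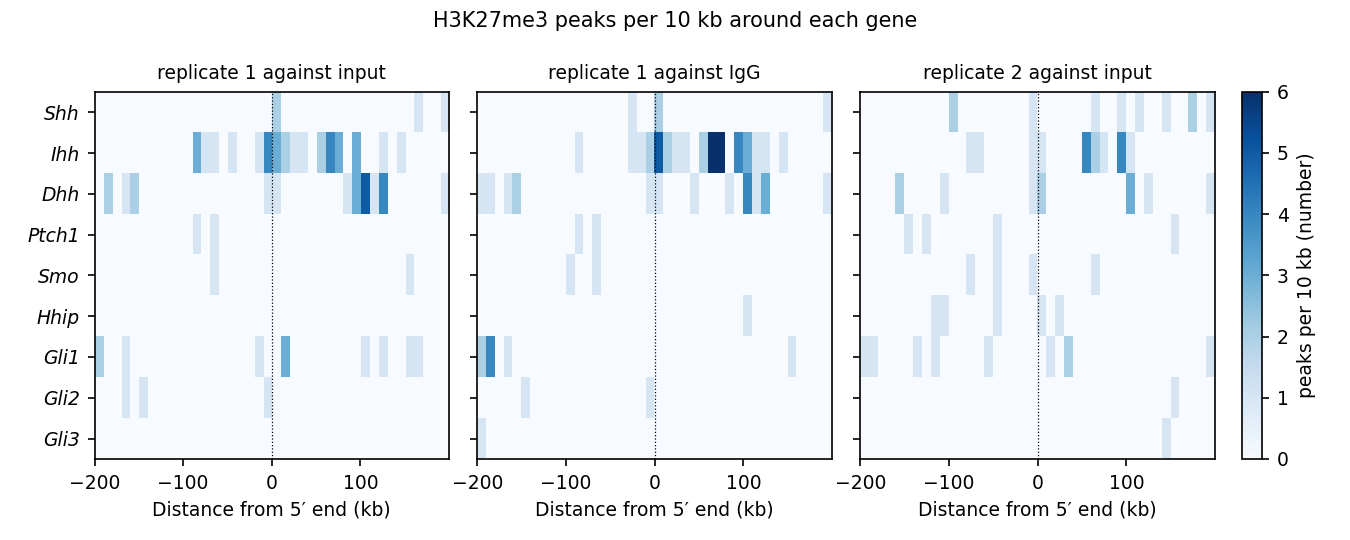
Number of peaks per 10 kb (colour) within 200 kb of each gene 5′ end (x axis, in kb along the direction of transcription), with genes as rows and 1 panel per list. Ihh has peaks at many places within 100 kb in all 3 panels, Dhh has a group about 100 kb downstream, and the rows of Ptch1, Smo, Hhip, Gli2 and Gli3 hold few peaks, none with more than 1 in a bin.

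Among 40 other genes of the pathway, 14 had a peak in both replicates against input, compared with 15.7% of protein-coding genes, and 15 had none in either. The median covered share was 0.116%. A longer window has more room for a peak, and the median window was 43.7 kb for these genes and 27.4 kb for all protein-coding genes. The effect of length on the counts was not tested. The 40 genes had 0.192, 0.181 and 0.185 peaks per 10 kb in the 3 lists, compared with 0.103, 0.114 and 0.139 in all protein-coding windows. Of the genes for processing and release of ligand, 2 of 5 had peaks in both, which were Hhat, the acyltransferase that attaches palmitate to the ligand, with 0.157% ± 0.0803, and Scube1, of a family of secreted release factors, which had 0.235% in replicate 1 and 0.801% in replicate 2. These 5 genes had a median window of 130 kb, with 0.132, 0.0589 and 0.162 peaks per 10 kb. Of the other receptors and co-receptors 3 of 6 had peaks in both. Their median window was 90.2 kb, with 0.228, 0.254 and 0.174 peaks per 10 kb. The co-receptor gene Cdon had 9, 10 and 2 peaks in the 3 lists and 1.08% ± 0.924, the endocytic receptor gene Lrp2 had 0.526% ± 0.0894, and the glypican gene Gpc3 had 0.0942% ± 0.115. Each of these SDs has an n of 2. Co-receptor genes thus carried peaks where Ptch1 and Smo did not.

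Of 15 genes of the cilium and of transduction (median window 45.5 kb), 3 had peaks in both replicates, where 15.7% of protein-coding genes did. Of the same genes, 7 had none in either, and the density was 0.0835, 0.0278 and 0.102 peaks per 10 kb. The 3 with peaks in both were Gpr161, a ciliary receptor that dampens the pathway (0.574% ± 0.369), Ift88, a gene of intraflagellar transport (0.433% ± 0.265), and Gsk3b, a kinase that acts on Gli proteins (0.105% ± 0.110). Of 14 known target genes, 6 had peaks in both replicates against input and 7 had none in either. Their median covered share was 0.0637% and their median window 17.2 kb. The forkhead gene Foxd1 had 7 peaks in each list and 8.23% ± 1.97, and Nkx2-2, a homeobox gene of the ventral neural tube, had 5.30% ± 2.50 and was the only one of the 40 with a promoter peak in both replicates. Foxc2 had 3.41% ± 1.35, the odd-skipped gene Osr2 0.543% ± 0.0616 and the survival gene Bcl2 0.127% ± 0.143 (SD, n = 2 each), and the forkhead gene Foxl1 had a mean of 2.86%. A further forkhead gene of the list, Foxf1, had 0 peaks in replicate 1 against input and 1 in replicate 2.

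Ligand genes of other families served for comparison. In both replicates against input, 8 of 19 Wnt ligand genes and 7 of 18 Fgf ligand genes had a peak. Over all protein-coding genes this share was 15.7%. Their median covered shares were 0.707% and 0.411%, and the highest with a peak in both replicates were Wnt1 with 6.57% ± 1.97 and Fgf8 with 3.77% ± 2.22 (SD, n = 2 each). Fgf15 had 3.78% ± 5.35, from 0% in replicate 1 and 7.56% in replicate 2. The 2.58% ± 0.264 of Ihh lay within 1 SD of the Fgf8 mean. In both replicates a promoter peak was found at 4 of 19 Wnt and 0 of 18 Fgf ligand genes, compared with 1.04% of protein-coding genes. With 3 Hedgehog ligand genes, a difference from these families was not tested.

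**Figure D5:**
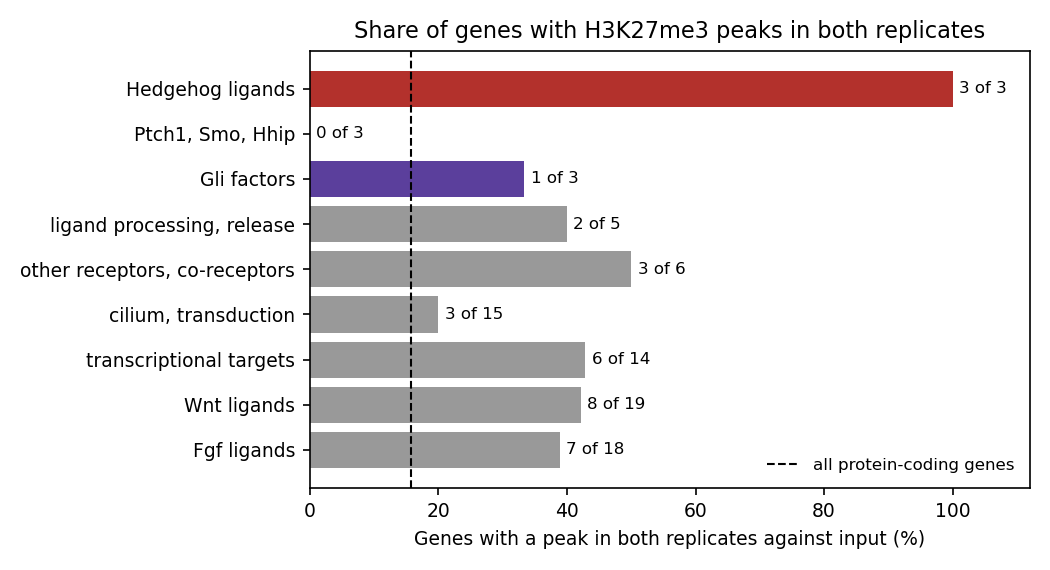
Share of genes with a peak in both replicates against input (x axis, percent) for groups of Hedgehog pathway genes and for Wnt and Fgf ligand genes (rows), with the number of genes beside each bar and a dashed line at 15.7% for all protein-coding genes. All 3 Hedgehog ligand genes, none of Ptch1, Smo and Hhip, and Gli1 alone of the Gli genes have peaks in both.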

How the data were processed

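Per the study's methods and the file headers, reads were aligned to GRCm38 with BWA, uniquely mapped reads were sorted with SAMtools, and MACS 2.1.1.20160309 called broad peaks at p below 0.005 with 1 tag kept per position and strand. MACS scaled the deeper of treatment and control down to the shallower. The authors deposited, per peak, the pileup (a signal), the fold enrichment (a ratio over control background), and the p-value and q-value as −log10, with replicates not pooled. The headers say that q-values were not calculated, although the column is filled, nearly always with 0. Peak lengths are in bases.

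Peaks were intersected with GENCODE M21 genes (same build) at 1 base or more, in Python 3.11.15 with pandas 2.3.3 and numpy 2.4.6, and the code was tested on simulated data. The covered share is the percent of the window under peaks. The MACS fragment length differed between replicates, and its effect on peak lengths, positions and covered shares was not tested. Members and gene lists were chosen with earlier results of these data known. All 9 members were named, with other genes in their windows, pathway genes with peaks in both replicates and the 3 genes most like the leading member. No test was made, since no condition was compared. Alternatives were other flanks, cutoffs, controls, overlaps and leaving out each replicate. Depth was 23688420 to 51681224 tags per library, and few tags support each peak. Peaks on mitochondrial DNA were left out of overlaps.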

Additional observations from a re-analysis of the deposited data

How the results depend on the processing

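The number of Hedgehog genes with a peak in both replicates, 4, depended on the cutoff and the window. Each stricter cutoff (fold enrichment of 3 or higher, p of 0.001 or lower, q of 0.05 or lower) left 0 of 9 genes and 0 peaks per library. The background was then 0.251% of protein-coding genes at the fold cutoff and 0.707% at the p cutoff, so these cutoffs remove most genes by construction. The q cutoff keeps 4 peaks in all lists together and says nothing about these genes. Without the flank the genes were 2 (Ihh and Dhh, with 12.3% of protein-coding genes) and the peaks per library 6. With replicate 2 reduced to the number of replicate 1 peaks they were 2 (Shh and Dhh, with 13.3%), and the replicate 2 peaks of Ihh and Gli1 were then left out. With a flank of 10 kb they were 6, Gli2 and Gli3 being added, with 18.9%. Against IgG they were the 3 ligand genes, and the share of protein-coding genes was not computed for this pair. Leaving out replicate 2 or replicate 1 gave 4 or 7 genes, where 25.0% or 35.7% of protein-coding genes had a peak. It gave 10 to 11 peaks per library and 17 to 22 other pathway genes. The other pathway genes, 14, were 0 at the fold cutoff, 2 at the p cutoff and 0 at the q cutoff.

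Promoter peaks in both replicates, 0, became 1 (Ihh) with promoters of 2 kb or 5 kb on each side and 2 (Ihh and Dhh) against IgG. They were 0 without replicate 2 and 2 without replicate 1, where 3.87% and 4.16% of protein-coding genes had one. The share of protein-coding genes was not computed for the wider promoters or for the pair with IgG. Whether the gains there exceed those of other genes was therefore not tested. Replicate 1 peaks overlapped by replicate 2, 0 of 10, became 2 of 10 when a peak within 1 kb counted, compared with 12.7% of the whole list. Against IgG they became 1 of 10, compared with 3.32% of that list. With so few peaks, a difference from the whole lists was not tested. Overlaps at the stricter cutoffs could not be computed, since no peaks remained. The median covered share stayed within the spread between libraries, which is as large as the value. For single genes, 43 of 63 covered shares stayed within it, and the other 20 did not. The moves were 7 at Gli1, 6 at Ihh, 5 at Shh and 1 each at Gli3 and Smo. Dhh, Hhip, Gli2 and Gli3 had an SD above their mean, so even a fall to 0% counted as staying within it. Ptch1 and Smo were at 0% from the start and could not fall. The 43 therefore do not show that the covered shares were stable. No paired analysis was possible because no result comes from a test.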
